A study of Mus musculus with 6 samples.

Results

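The probes named for human long intergenic noncoding RNAs (lincRNAs) were examined in mouse spleens after induction of experimental autoimmune encephalomyelitis (EAE), which models multiple sclerosis. They were taken by name, as every probe of the array whose name starts with humanlincRNA, and numbered 1104 of the 60915 non-control probes. Each name gives a locus number and a plus or minus sign, read here as the strand of the locus, and 549 probes were on the plus strand and 555 on the minus strand. The 1104 probes covered 557 locus numbers with a single probe per strand. Both strands were on the array for 547 loci, the plus strand alone for 2 and the minus strand alone for 8. The systematic name repeated the probe name for all 1104, so the probes carry no gene symbol or position here. The array design is of mouse build mm9 per the file headers, and the mouse sequence that each probe binds was not analysed here.

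LincRNAs are transcripts without long open reading frames, made from regions between protein-coding genes, and many are spliced and polyadenylated like mRNAs. Some regulate transcription or chromatin near their own locus or elsewhere, and most have no known function. Their sequences are less conserved between mammals than those of proteins, and their levels are usually lower and more restricted to particular tissues than those of mRNAs. Where the strand of a transcript is not known, a probe against each strand of the locus can show which strand is transcribed.

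The spleens came from 6 female mice of the C57BL/6 strain, all 12 weeks old. EAE had been induced in 3 of them with a myelin oligodendrocyte glycoprotein peptide at 2 mg/mL and 200 ng of pertussis toxin. The titles call the peptide MOG33-35 and the treatment protocol calls it MOG35-55. The 3 control mice were given phosphate-buffered saline (PBS) rather than peptide, and whether they also received the toxin cannot be told from the labels. Total RNA of each spleen was labelled with Cy3 and hybridised to its own array, so the replicates are separate mice. The series asked which lncRNAs and mRNAs differ between the spleens of EAE and normal mice.

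EAE arrays were dimmer, with a 75th percentile of the processed signal of 277 to 392 against 429 to 567 in PBS, and this percentile was the scale for every array. Control spots for mouse GAPDH differed between the 3′ and 5′ ends by 1.05 to 1.17 (log2) in the PBS mice, and by 1.20 to 1.49 in the EAE mice. EAE 3 was scanned apart from the other 5 arrays. Of 19 marker genes of spleen cell types, 1 (Tfrc) had a probe with a gene name here, so the tissue label was not checked against markers. With bulk RNA, fewer cells of a type and less RNA per cell cannot be told apart. The part of brightness, RNA ends and scan in the results that follow was not tested, apart from the values given with EAE 3 left out.

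Most of these probes were not well above background on any array. A second flag, for a signal positive and significant against background, was set for more of them. It was set for 68.8%, 66.3% and 64.8% in PBS and for 55.3%, 57.5% and 57.8% in EAE. Over all non-control probes it was set for 88.7%, 87.9% and 88.0% in PBS and for 82.0%, 84.1% and 83.5% in EAE. The counts that follow use the well-above-background flag. Of the 1104 probes, 636 were well above background on 0 of the 6 arrays, 139 on 1 or 2 arrays and 329 on at least 3, and 185 were well above background on all 6. The share well above background was 32.0% in PBS 1, 35.1% in PBS 2 and 30.0% in PBS 3, and it was 21.6% in EAE 1, 23.7% in EAE 2 and 27.8% in EAE 3. Every EAE array lay below every PBS array. The mean share was 32.3% ± 2.56 in PBS and 24.4% ± 3.13 in EAE (SD, n = 3 each), a difference of 7.94 percentage points. Over all non-control probes the shares were 69.2% ± 1.53 and 61.6% ± 3.39, a difference of 7.61 points, on the same dimmer EAE arrays. Probes named for mouse lincRNAs had 34.4% in PBS and 27.2% in EAE, and probes named for mm9 lincRNA exons had 51.8% and 44.6%. As a ratio of EAE to PBS, the mean share was 0.754 for the human lincRNA probes and 0.890 over all non-control probes. It was 0.791 for the mouse lincRNA names and 0.860 for the mm9 lincRNA exons. The loss was thus similar in points but larger in proportion than over the array.

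Detection was lower in EAE on both strands. Plus-strand probes were well above background at 30.6%, 34.1% and 29.0% in PBS and at 20.6%, 22.2% and 26.8% in EAE. Minus-strand probes had 33.3%, 36.0% and 31.0% in PBS and 22.7%, 25.2% and 28.8% in EAE. The minus-strand share was the higher on each of the 6 arrays, by 1.97 to 3.00 percentage points. These arrays share the same probes, so the 6 gaps are no independent evidence of a strand difference. In 214 of the 1104 probes more PBS than EAE arrays were well above background (102 plus, 112 minus), and in 46 more EAE than PBS arrays were (19 plus, 27 minus).

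Most loci with any strand detected had a single strand past the filter. Only 28.6% of plus-strand and 31.0% of minus-strand probes passed it, so single strands are frequent at such shares. Whether the strands of a locus were detected together more or less often than these shares give was not tested. Among the 547 loci with both strands on the array, 279 had neither strand well above background on at least 3 arrays, 98 had the plus strand alone, 111 the minus strand alone and 59 both. Of the 268 loci with at least 1 strand past this filter, 22.0% had both. On single PBS arrays both strands were well above background at 53 to 78 loci, the plus strand alone at 105 to 112 and the minus strand alone at 117 to 126. On single EAE arrays the numbers were 33 to 49, 80 to 98 and 92 to 108. A probe below the background limit gives no level, so these counts do not show that the other strand is untranscribed.

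The detected probes were dim compared with the array as a whole. Levels are log2 processed signals relative to the 75th percentile of the array, so that 0 is the 75th percentile. The 329 probes past the filter had a median level of -2.72, and all 41173 probes past it a median of -1.10. Plus-strand probes had a median of -2.76 (quartiles -3.50 and -1.28) and minus-strand probes a median of -2.66 (quartiles -3.34 and -1.62). Since probes bind with unequal strength, the level of a probe is not an amount of RNA and probes are not ranked by it beyond naming the brightest.

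None of the 3 brightest probes of each strand passed the test for a change between the groups. A bright plus-strand probe outside these, humanlincRNA0635+_P1, did pass and is given below. Its mean levels were 3.87 in PBS and 6.13 in EAE, against 4.66 and 5.24 for the brightest minus-strand probe. On the plus strand the brightest was humanlincRNA2397+_P1, with processed signals of 71137, 76384 and 76806 in PBS and 58812, 46945 and 55711 in EAE. The unscaled EAE values lay below those of PBS, and after scaling the groups differed by 0.10 ± 0.23 (SE) on the log2 scale (limma adjusted p = 0.812), with the sign turned by quantile normalization and by cyclic loess. The next was humanlincRNA1739+_P1, with 57176, 57879 and 57481 in PBS and 36818, 34132 and 54531 in EAE. After it came humanlincRNA2330+_P1, with 30516, 33417 and 37862 and then 26623, 19177 and 20616. In both the unscaled EAE signals again lay below all those in PBS. Their scaled log2 differences were 0.09 ± 0.20 (adjusted p = 0.810), with the sign turned under quantile normalization, cyclic loess and normexp, and -0.04 ± 0.29 (adjusted p = 0.946), with the sign turned without EAE 3. On the minus strand the brightest, humanlincRNA0324-_P1, had 9214, 16097 and 13054 in PBS and 12546, 8549 and 18024 in EAE, which overlap. It was followed by humanlincRNA0847-_P1 (10424, 17410 and 11764, then 8713, 6431 and 9295) and humanlincRNA1516-_P1 (6670, 9362 and 10266, then 5855, 6196 and 4321). In these 2 the EAE signals lay below those of PBS before scaling. The scaled log2 differences were 0.58 ± 0.30 (adjusted p = 0.262), -0.09 ± 0.24 (0.841, sign turned without EAE 2) and -0.09 ± 0.32 (0.883, sign turned without EAE 3), and none passed the test in any alternative.

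In EAE spleens 24 of the human lincRNA probes were higher and 6 were lower, of 329 tested (limma, Benjamini-Hochberg adjusted p under 0.05 over all 41173 tested probes). The share called was 9.12%, against 8.84% of all tested probes, so over all levels together the probes were called about as often as the array. The shares differed by level. The level here is the mean over all 6 arrays, EAE included, so a change can itself move a probe between levels. Above a level of 0, 28.6% of 42 members were called, against 10.1% of all tested probes. Among them the higher calls humanlincRNA0931+_P1, humanlincRNA0459-_P1 and humanlincRNA0469-_P1 had PBS means below 0 (-0.85, -1.27 and -0.40). The lower calls humanlincRNA2333+_P1 and humanlincRNA2397-_P1 had PBS means above 0 (0.49 and 0.12) and were counted from -2 to 0. From -2 to 0 the shares were 9.09% and 9.39%, from -4 to -2 they were 4.66% and 6.82%, and below -4 they were 10.7% and 10.8%. The 3 member calls below -4 were the 3 members that passed the filter through EAE arrays alone. They had to differ to be tested, so that share is no support for a change. This difference by level was not tested. Higher calls made up 7.29% of the tested members against 6.18% of all tested probes, and lower calls 1.82% against 2.66%. On the plus strand 9 were higher and 4 lower of 157, and on the minus strand 15 were higher and 2 lower of 172, shares of 8.28% and 9.88%. Whether the strands differ in these shares was not tested. The groups did not overlap in any of the 30 calls, nor in any of the 3640 calls over all tested probes. Over all 329 the groups did not overlap for 80 (24.3%), against 33.1% of all tested probes. EAE lay wholly above PBS for 37 of them and wholly below for 43, against 19.5% and 13.6% of all tested probes. An unadjusted p under 0.05 was found for 91 of the 329, against 26.4% of all tested probes.

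The balance of higher and lower calls depended on single mice. Without PBS 2 the limma test gave 19 calls with 0 lower, against 3.41% of all tested probes called and 0.488% lower. In that fit 58 members had an unadjusted p under 0.05, a count with no share over all tested probes beside it. Without PBS 1 there were 18 calls with 1 lower, against 3.76% of all tested probes called and 0.804% lower, and without PBS 3 there were 27 calls with 11 lower, against 4.29% and 1.09%. Calls were thus fewer over the whole array as well when a PBS mouse was left out. Without EAE 1 there were 36 calls with 9 lower (6.9% and 1.94% of all tested probes), and without EAE 2 there were 33 with 11 lower (11.4% and 4.86%). Leaving out EAE 3 keeps the 5 arrays of the shared scan and gave 24 higher and 14 lower of 38 calls. Over all tested probes 8.11% were then called, 5.55% higher and 2.56% lower.

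The treatment of dim signals mattered too. With background corrected by normexp, 50 were called, 37 higher and 13 lower, as against 13% of all tested probes called, 9.63% higher and 3.42% lower. With dim spots raised to the background limit there were 43 calls, 13 of them lower (10.3% and 3.1% of all tested probes). Requiring all 6 arrays to be well above background left 185 human lincRNA probes, of which 11 were lower, against 3.93% of all probes so tested. The replicate number as a block gave 38 calls, 22 higher and 16 lower, against 8.97%, 5.27% and 3.7%.

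The median log2 difference between EAE and PBS was -0.14 over the 329 probes, -0.17 on the plus strand and -0.12 on the minus strand, against -0.02 over all tested probes. The difference was below 0 for 201 probes and above 0 for 128. The sign of this median turned with the treatment of dim signals: it was 0.18 with normexp (all probes 0.14) and 0.33 with no filter, over all 1104 probes (all probes 0.09). The filter on dim probes takes part in these values, since 17 of the 329 passed it through PBS arrays alone and 3 through EAE arrays alone. Mice varied more in EAE: the SD of a probe had a median of 0.47 (log2) there and of 0.25 in PBS. Over all tested probes the medians were 0.32 and 0.18.

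Large rises were measured best where a probe was well above background on all 6 arrays. Among the 8 probes with the largest fitted rise, humanlincRNA1945-_P1 had processed signals of 505, 1296 and 686 in PBS and 3614, 7296 and 12153 in EAE. Every EAE array exceeded every PBS array even before scaling. Its log2 level rose by 3.74 ± 0.39 (SE, n = 3 per group), 13.4-fold, from 0.63 ± 0.58 (SD) to 4.38 ± 0.63 (limma adjusted p = 0.00181). The probe humanlincRNA1382-_P1 had 409, 1127 and 673 in PBS and 2879, 5754 and 6830 in EAE. It had the same order of the arrays within PBS and within EAE, and rose 10.7-fold (log2 3.42 ± 0.37, adjusted p = 0.00189). On the plus strand, humanlincRNA0931+_P1 had 220, 449 and 209 in PBS and 1426, 1142 and 1986 in EAE, and rose 8.07-fold (log2 3.01 ± 0.28, adjusted p = 0.00139). All 3 calls held in all 19 alternatives (the scan as a block is the same fit as leaving out EAE 3), and with normexp the log2 rises were 3.44, 3.17 and 2.62.

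The opposite strand of these 3 loci was not well above background on any array. The partner humanlincRNA1945+_P1 had signals of 18.6, 5.59 and 9.57 in PBS and 17.9, 10.6 and 10.9 in EAE. For humanlincRNA1382+_P1 they were 16.3, 21.3 and 22.3 and then 22.5, 17.3 and 22.2. For humanlincRNA0931-_P1 they were 5.14, 10.3 and 5.43 and then 5.17, 5.60 and 5. The lowest signal well above background was 21.5 to 27.2 over the 6 arrays, and these partners lay near or below it in both groups.

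In the remaining 5 of the 8 largest rises at most 1 PBS array was well above background, and the fitted size depends on the background correction. The probe humanlincRNA1025-_P1 had 5.23, 7.45 and 7.54 in PBS and 38.5, 75.9 and 128 in EAE. It passed the background limit on 3 EAE arrays and 0 PBS arrays, and on processed signals was at least 4.62-fold higher in EAE (adjusted p = 0.00129). The bound sets the EAE mean against the higher of the probe's own PBS signal and the lowest signal well above background on each PBS array. By the same measure humanlincRNA0170+_P1, with 5.18, 12.3 and 5.12 in PBS and 30.3, 48.0 and 89.8 in EAE, was at least 3.25-fold higher (adjusted p = 0.00178). The probe humanlincRNA0194-_P1 had 6.95, 5.06 and 13.4 in PBS and 26.4, 55.5 and 73.2 in EAE, and was at least 3.05-fold higher (adjusted p = 0.00712). These 3 were the members tested through EAE arrays alone, so they had to differ to be tested, and their p-values are no support for a rise. Without them 21 higher calls remain. With normexp their log2 differences were 1.46, 1.17 and 1.11, smaller than the bounds, which in log2 are 2.21, 1.70 and 1.61. The bounds thus hold for processed signals alone and not under another background correction.

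A single PBS mouse carried the signal of the other two. The probe humanlincRNA0644-_P1 had 11.9, 58.6 and 14.5 in PBS and 134, 192 and 401 in EAE, and humanlincRNA0495+_P1 had 8.47, 45.1 and 11.4 and then 40, 105 and 138. Both were well above background in PBS on PBS 2 alone. The fitted log2 differences were 3.92 ± 0.54 (adjusted p = 0.00543) and 2.94 ± 0.58 (adjusted p = 0.0238). The first passed in all 18 alternatives. The second lost its call with any of 4 mice left out, namely PBS 1 (adjusted p = 0.0708), PBS 3 (0.0690), EAE 2 (0.0526) or EAE 3 (0.0592), and its unscaled signals overlapped between the groups. Opposite strands of these loci gave no signal above the limit. The signals of humanlincRNA0644+_P1 were 11.3, 5.30 and 11.2 in PBS and 5.25, 5.57 and 5.19 in EAE. Those of humanlincRNA0495-_P1 were 6.28, 5.39 and 5.78 and then 5.32, 9.77 and 5.27. At the first of the 5 loci, humanlincRNA1025+_P1 had 5.94, 5.73 and 5.53 and then 5.55, 5.88 and 5.33. None of these 3 partners was well above background on any array.

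The other 16 higher probes had fitted log2 differences of 0.91 to 2.82. Those with the largest were humanlincRNA0566+_P1 (2.82), humanlincRNA0502-_P1 (2.70), humanlincRNA0459-_P1 (2.66), humanlincRNA0469-_P1 (2.37) and humanlincRNA0635+_P1 (2.26). All 5 were well above background on every array and passed in all 19 alternatives. The brightest of the 24 was humanlincRNA0635+_P1, with 5165, 12453 and 5827 in PBS and 19641, 17123 and 36332 in EAE. Its groups did not overlap before or after scaling, and it rose 4.79-fold (adjusted p = 0.0067). Next came humanlincRNA2265-_P1 (2.09), humanlincRNA0518+_P1 (1.92), humanlincRNA1725+_P1 (1.76), humanlincRNA1542+_P1 (1.73), humanlincRNA2316-_P1 (1.72) and humanlincRNA1645+_P1 (1.53). The smallest were humanlincRNA0247-_P1 (1.15), humanlincRNA0638-_P1 (1.05), humanlincRNA1132-_P1 (1.00), humanlincRNA1016-_P1 (0.93) and humanlincRNA1970-_P1 (0.91). The last 4 of these and humanlincRNA2316-_P1 had adjusted p-values of 0.0353 to 0.0491 and lost the call without PBS 1, without PBS 2 and without PBS 3, each in turn. That of humanlincRNA0518+_P1 was lost without PBS 3 (adjusted p = 0.0557), and that of humanlincRNA1645+_P1 without PBS 1 (0.061) and PBS 3 (0.0551).

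Of the 24 higher probes, 16 kept the call with each array left out in turn and 15 kept it in every alternative run, counts that include the 3 tested through EAE arrays alone. These counts have no share over all tested probes beside them, and are not read as a trait of the human lincRNA probes. The unscaled signals of 8 overlapped between the groups, on arrays that were dimmer in EAE. Over all tested probes those of 837 of the 2545 higher calls did. With spots below the background limit raised to it, 22 of the 24 differed by a factor of 2 or more, 11 by 4 or more and 4 by 8 or more. Among the 2545 higher calls over all tested probes the counts were 1930, 728 and 204. The mice of a group were not evenly placed in these probes. PBS 2 was the highest of the PBS arrays for 18 of the 24 (9 of 9 on the plus strand and 9 of 15 on the minus strand). Over all tested members PBS 2 was the highest for 49.8%, and over all tested probes for 27.5%. EAE 3 was the highest EAE array for 14 of the 24 (58.3%). It was so for 44.1% of all tested members and for 27.4% of all tested probes.

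Among the called probes, the falls were smaller than the largest rises. The largest called fall was at humanlincRNA2333+_P1, which had 726, 829 and 553 in PBS and 184, 113 and 178 in EAE. The unscaled groups did not overlap, and the scaled level (log2) fell by 1.58 ± 0.26 (SE), its means being 0.49 ± 0.10 in PBS and -1.09 ± 0.47 in EAE (SD, n = 3) (limma adjusted p = 0.0113). The probe humanlincRNA1398-_P1 had 914, 1405 and 594 in PBS and 160, 269 and 261 in EAE, and its level fell by 1.44 ± 0.26 (adjusted p = 0.0163). For humanlincRNA0284+_P1 the signals were 677, 1186 and 838 and then 209, 261 and 326, and the level fell by 1.16 ± 0.21 (adjusted p = 0.0175). Larger negative differences were fitted at humanlincRNA2149-_P1, humanlincRNA1655-_P1 and humanlincRNA2099-_P1 (-3.80, -3.61 and -2.70), which were not called and were noted after their values were seen. With normexp the first 2 passed, at -1.46 (adjusted p = 0.0423) and -1.63 (0.0313), against -1.17 at humanlincRNA2333+_P1. At humanlincRNA2333+_P1, humanlincRNA1398-_P1 and humanlincRNA0284+_P1 the lowest PBS signal was more than any EAE signal, as in all 1095 lower calls over all tested probes, on the dimmer EAE arrays.

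The other 3 falls had larger adjusted p-values. The probe humanlincRNA2397-_P1 had 440, 679 and 518 in PBS and 115, 123 and 271 in EAE, and its level fell by 1.19 ± 0.28 (adjusted p = 0.0387). At humanlincRNA1563+_P1 the signals were 1007, 1322 and 701 and then 258, 249 and 491, and the level fell by 1.05 ± 0.25 (adjusted p = 0.0416). The dimmest, humanlincRNA1852+_P1, had 77.2, 117 and 61.6 in PBS and 27.5, 26.2 and 35.4 in EAE, and its level fell by 0.90 ± 0.21 (adjusted p = 0.0388). It passed the background limit on 2 of 3 EAE arrays, passed the test in 4 of 18 alternatives, and with normexp its difference was -0.14 (adjusted p = 0.558). None of the 6 falls kept its call with every array left out in turn, though each stayed below 0 in all 6 cases. This count has no share over all tested probes beside it. Lower calls over all tested probes went from 2.66% to 0.488% without PBS 2. With arrays left out, the log2 difference lay between -1.83 and -1.36 at humanlincRNA2333+_P1, between -1.65 and -1.24 at humanlincRNA1398-_P1 and between -1.35 and -1.05 at humanlincRNA0284+_P1. It lay between -1.46 and -1.02 at humanlincRNA2397-_P1, between -1.24 and -0.87 at humanlincRNA1563+_P1 and between -1.01 and -0.75 at humanlincRNA1852+_P1. Calls of humanlincRNA2333+_P1 and humanlincRNA1398-_P1 were lost without PBS 1 (adjusted p = 0.0522 and 0.0641) and without PBS 2 (0.0599 and 0.0652). That of humanlincRNA0284+_P1 was lost without PBS 2 (0.0857) and PBS 3 (0.0789). The calls of humanlincRNA2397-_P1 and humanlincRNA1563+_P1 held without EAE 3 alone (0.0139 and 0.0265), and that of humanlincRNA1852+_P1 was lost in all 6 cases.

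Strand partners of the 30 called probes were rarely bright enough to test. A partner was on the array for 29 of them, was well above background on 0 of 6 arrays for 17, and was tested for 9. No locus had both strands called. Among the falls, humanlincRNA1398+_P1 had signals of 5.21, 5.80 and 5.54 in PBS and 5.57, 5.89 and 5.33 in EAE. The partner humanlincRNA0284-_P1 had 15, 17.6 and 5.06 and then 7.91, 10.3 and 4.53. Neither was well above background on any array. The partner humanlincRNA1852-_P1, with 14.2, 16.6 and 10 in PBS and 5.11, 5.68 and 29.5 in EAE, was so on EAE 3 alone. At the locus of humanlincRNA1563+_P1 the minus strand was bright enough to test. It had 82, 50.1 and 32.9 in PBS and 70.1, 46.2 and 40.6 in EAE, and a scaled log2 difference of 0.57 ± 0.40 (adjusted p = 0.408). The partner of the falling humanlincRNA2397-_P1 was humanlincRNA2397+_P1, the brightest of all the human lincRNA probes.

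Whether the 2 strands of a locus changed unequally was tested on the plus minus minus difference within each array, for all 91 loci of the human and mouse lincRNA name families with both strands past the filter. Of these 9 were called (9.89%) in limma with Benjamini-Hochberg adjustment over the 91, and 5 of them were among the 59 human lincRNA loci. At 4 of the 5 the minus strand gained on the plus strand in EAE, and at 1 the plus strand gained. These counts include humanlincRNA0170 and humanlincRNA0194, where the strand that rose had passed the filter through EAE arrays alone. That strand had to differ for the locus to be tested, so the p-values of these loci are no support for a strand shift. Across the 59 loci the log2 differences of the strands had the same sign at 28 (7 both above 0 and 21 both below 0) and opposite signs at 31. Their Pearson correlation was -0.07 and their Spearman correlation -0.13 over 59 loci measured on the same 6 arrays with the same scaling.

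The clearest case was locus humanlincRNA0459, the only called locus with both strands well above background on all 6 arrays. Its plus-strand probe had 395, 376 and 214 in PBS and 128, 153 and 277 in EAE, a scaled log2 difference of -0.27 ± 0.26 (adjusted p = 0.555). Its minus-strand probe had 177, 366 and 132 in PBS and 634, 790 and 1273 in EAE, a rise of 2.66 ± 0.31 (adjusted p = 0.00252). The minus strand alone passed the test, and before scaling its EAE signals exceeded all those in PBS. Within the arrays, plus minus minus came to 1.16, 0.04 and 0.70 for the PBS mice and to -2.31, -2.37 and -2.20 for the EAE mice, with no overlap. It moved by -2.93 ± 0.44 (limma adjusted p = 0.0116) and by -2.38 with normexp. The call was missed without EAE 2 (adjusted p = 0.0511) and with no filter on dim probes (0.0515).

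At humanlincRNA2333 the plus strand fell while the minus strand did not pass the test. The minus-strand probe had 37.4, 52.2 and 42.0 in PBS and 25.5, 26.7 and 46.5 in EAE, a scaled log2 difference of 0.13 ± 0.21 (adjusted p = 0.749), with the sign turned without EAE 3. The within-array difference moved by -1.71 ± 0.44 (adjusted p = 0.0426) and by -1.50 with normexp (adjusted p = 0.0103). The call was lost without PBS 1, PBS 2, PBS 3, EAE 2 and EAE 3, with adjusted p-values of 0.0685 to 0.200.

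The other 3 calls rested on signals below the background limit. Those at humanlincRNA0170 and humanlincRNA0194 also rested on a strand that passed the filter through EAE arrays alone. At humanlincRNA0170 the plus strand was well above background in no PBS mouse, and its partner humanlincRNA0170-_P1 had 109, 141 and 15.1 in PBS and 25.9, 12.7 and 26.6 in EAE, with 2 PBS arrays and 1 EAE array well above background. The within-array difference moved by 4.46 ± 0.78 (adjusted p = 0.0116) on processed signals, by 1.40 with normexp (0.0492) and by 2.53 with dim spots raised to the limit (0.0667). At humanlincRNA0194 it moved by -2.85 ± 0.50 (adjusted p = 0.0116), by -0.64 with normexp (0.100) and by -1.03 with the raised limit (0.178). The partner humanlincRNA0194+_P1 had 28.5, 23.9 and 27.3 in PBS and 15.7, 31.7 and 23.0 in EAE. At humanlincRNA1230 the plus strand had 29.2, 50.7 and 20.3 in PBS and 5.83, 5.97 and 28.4 in EAE, and the minus strand had 82.1, 88.3 and 54.2 and then 74.4, 72.2 and 160. Both sets overlap between the groups. Neither strand passed the test alone, with log2 differences of -1.06 ± 0.52 on the plus strand (adjusted p = 0.245, sign turned with normexp) and 0.96 ± 0.26 on the minus strand (0.0658). The within-array difference moved by -2.02 ± 0.48 (adjusted p = 0.0317) and by -0.58 with normexp (0.115). The call at humanlincRNA0170 was lost without PBS 2 (adjusted p = 0.0696) and EAE 2 (0.0624). At humanlincRNA0194 it was lost without PBS 1 (0.0534), PBS 2 (0.085) and EAE 2 (0.0511), and at humanlincRNA1230 without any array but EAE 3 (0.0657 to 0.200 otherwise).

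Strand calls were few enough for single mice to matter. Of the 59 loci, 15 had an unadjusted p under 0.05. The unadjusted counts in this paragraph have no share over all loci beside them, and are not read as a trait of the human lincRNA loci. Without EAE 2 the limma test called 0 loci, with 12 at an unadjusted p under 0.05. In this case 0% of all 91 loci were called. Without PBS 1, PBS 2 and PBS 3 it called 2, 1 and 3 of the human lincRNA loci, against 2.2%, 1.1% and 4.4% of all 91. With dim spots raised to the background limit 3 were called, against 7.69% of all. With no filter on dim probes, 547 loci entered for the human lincRNA names, 0 were called (0% of all 864 loci) and 84 had an unadjusted p under 0.05. The groups did not overlap in the strand difference at 21 of the 59 loci, against 30.8% of all 91. At humanlincRNA2397, where the minus strand fell and the plus strand did not pass, the strand difference of 1.30 ± 0.48 missed the threshold (adjusted p = 0.147).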

How the data were processed

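Per the file headers, spot intensity was read with Feature Extraction 11.0.1.1 under protocol GE1_1100_Jul11. Its processed signal was not yet scaled between arrays, and detection flags are deposited as 0 or 1. A second deposited table holds the authors' normalized log2 values of 60804 probes, with a median of 6.03 in each column. Quantile normalization of the scanner values came within a median of 0.00047 of it, and the tool used is not given in the sources used here. This table served as an alternative.

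Control spots, 15 probes named as negative and 138 outlier spots on the 6 arrays were set aside (1 was a human lincRNA spot, not tested). Values were log2 processed signals less the array's 75th percentile. The test was limma 3.58.1 (R 4.3.3; lmFit, eBayes; EAE against PBS; two-sided) on the 41173 probes well above background on at least 3 arrays. Benjamini-Hochberg adjusted p under 0.05 was the call. The strand fit took the plus minus minus difference within an array. The probe fit was run on simulated data with known changes. It recovered 4% of log2 rises of 1, 50% of rises of 2 and 88% of rises of 3. This simulation held 50 changed probes of each size and an equal spread in both groups. In the data 3640 probes were called and EAE mice varied more. The rates therefore do not give the recovery of the reported fit. The strand fit was simulated on 864 loci of all levels, not on the 91 reported, and recovered 20%, 72% and 74%. The number of mice limits the precision. Each array is a separate mouse per the labels' protocols.

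Members, lists and rules were chosen with earlier results of these data known. By rule, all calls were named, and signals on each array were given for the 8 largest rises, all falls, their strand partners, the 5 loci with the smallest p in the strand fit and the 3 brightest probes of each strand. Alternatives were other normalizations, normexp (offset 50, median signals), filters, blocks, array weights, another prior and each array left out. Raising dim spots to the background limit was chosen after seeing the data.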

Additional observations from a re-analysis of the deposited data

Results flagged for a closer look

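Of the 775 human lincRNA probes outside the comparison, 2 were well above background on 2 EAE arrays and on 0 PBS arrays. The probe humanlincRNA0076+_P1 had processed signals of 5.18, 5.35 and 5.31 on PBS 1, 2 and 3 and of 5.24, 36.6 and 57.8 on EAE 1, 2 and 3, so EAE 1 lay with the PBS mice. The probe humanlincRNA1897-_P1 had 10.7, 7.96 and 15.7 in PBS and 14.7, 37.4 and 257 in EAE, again with EAE 1 among the PBS values. Neither was tested, because fewer than 3 arrays were well above background.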

How the results depend on the processing

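Between 18 and 30 of the 30 calls were shared with an alternative, and all shared calls kept their direction. These counts have no share over all tested probes beside them. Normexp gave 50 calls (37 higher, 13 lower, 32 on the minus strand) and moved the median log2 difference from -0.02 to 0.14 over all probes and from -0.14 to 0.18 over the human lincRNA probes. There were 11 lower calls when all 6 arrays had to be well above background, 14 with the scan as a block, 16 with the replicate block (38 calls in all) and 13 with dim spots raised, which also gave 26 minus-strand calls and 3 strand loci. No filter on dim probes gave 0 strand loci. With single arrays left out, calls ranged from 18 to 38, with 16 to 27 higher, 0 to 14 lower, 8 to 19 on the plus strand, 10 to 21 on the minus strand and 0 to 7 strand loci. Arrays with the same number deviated together at correlations of 0.15, 0.04 and -0.14, and were not treated as pairs. The detection difference was 6.57 to 9.75 points.

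Differences that were not called turned sign at these probes. At humanlincRNA2397+_P1 the value was -0.11 with quantile normalization and with the authors' deposited table, -0.20 with cyclic loess, -0.0759 with normexp and quantile normalization, and -0.0877 to 0.23 with arrays left out. At humanlincRNA1739+_P1 it was -0.16 with quantile normalization, with or without normexp, and with the authors' deposited table, -0.19 with cyclic loess, -0.0059 with normexp, and -0.00298 to 0.22 with arrays left out. With the scan as a block it was 0.13 at humanlincRNA2330+_P1, 0.19 at humanlincRNA1516-_P1 and -0.025 at humanlincRNA2333-_P1, and with arrays left out it was -0.31 to 0.14, -0.28 to 0.19 and -0.025 to 0.25. At humanlincRNA0847-_P1 it was -0.28 to 0.066 with arrays left out. At humanlincRNA1230+_P1 it was 0.13 with normexp and 0.32 with dim spots raised. The cause was not tested. Signals near background limit what can be said of most of these probes, more so on the dimmer EAE arrays.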

Other observations

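The largest negative fitted differences among the human lincRNA probes were not called, and were noted after their values were seen. The probes humanlincRNA2149-_P1, humanlincRNA1655-_P1 and humanlincRNA2099-_P1 had log2 differences of -3.80 ± 1.1, -3.61 ± 1.08 and -2.70 ± 0.79 (SE, limma adjusted p = 0.0759, 0.0834 and 0.0781). Their processed signals in PBS were 468, 647 and 187, then 366, 664 and 179, then 364, 513 and 144, with PBS 2 the highest and PBS 3 the lowest each time. In EAE they were 9.22, 126 and 5.32, then 10.6, 124 and 5.46, then 14.4, 118 and 17.1, so in all 3 probes EAE 2 alone was well above background. With normexp the differences were -1.46 (adjusted p = 0.0423), -1.63 (0.0313) and -1.17 (0.0599).

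At humanlincRNA1907-_P1 a single EAE mouse stood apart the other way, with 81.6, 118 and 56.8 in PBS and 834, 182 and 52.1 in EAE (log2 difference 1.87 ± 0.97, limma adjusted p = 0.264).

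Higher calls were gathered in part of the locus numbering. Of the 37 tested probes with locus numbers from 400 to below 700, 9 were higher and 0 lower in EAE (24.3% higher), and of the other 292, 15 were higher (5.14%) and 6 lower. The median log2 difference was 0.11 in the first group and -0.17 in the second. The range was chosen after its values were seen, what the numbers order is not given in the labels, and the difference was not tested.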
